A study of Homo sapiens with 14 samples.

Results

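Genes for pioneer and lineage transcription factors of luminal breast cells, FOXA1, GATA3, TFAP2A, TFAP2C, GRHL2, SPDEF and XBP1, were followed through the binding regions deposited for the progesterone receptor (PR) and for POLR3A, the largest of the RNA polymerase III subunits. They are 7 of the 19821 protein-coding genes on chromosomes 1 to 22 and X, are named for their function, and each was taken with 50 kb on each side of its RefSeq span on GRCh38. All rows of the 4 deposited region lists that overlapped such a window were kept, which gave 99 PR regions under vehicle, 236 PR regions under P4, 84 POLR3A regions under vehicle and 143 POLR3A regions under P4. The cells were T47D, a line from a breast cancer that carries both the oestrogen and the progesterone receptor, so every value describes 1 line, and the lists hold no expression against which its luminal identity could be checked. They were given either ethanol as vehicle or progesterone (P4) for 1 h, both without a genetic change named in the labels, and the dose of P4 is not given in the sources used here. Chromatin immunoprecipitation and sequencing (ChIP-seq) gave 3 libraries for each antibody and treatment and 1 pooled input for each treatment, 14 in all. Each antibody and treatment had 1 region list, so no value below has a replicate error, no difference was tested, and every interval printed covers counting error over regions only.

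Luminal identity rests on a small network of DNA-binding proteins. FOXA1 is a forkhead factor that opens compacted chromatin ahead of steroid receptors, GATA3 is a zinc-finger factor needed for luminal differentiation, and TFAP2A and TFAP2C encode the alpha and gamma members of the AP-2 family, which bind with FOXA1 at many oestrogen receptor sites. GRHL2 is a grainyhead factor that keeps epithelial genes accessible, SPDEF is an Ets-family factor of secretory epithelium, and XBP1 is the basic leucine zipper factor of the unfolded protein response. PR is a ligand-activated receptor that binds DNA at hormone response elements, many of them far from gene starts. RNA polymerase III transcribes short RNAs such as transfer RNAs, and none of the windows held an annotated transfer RNA gene.

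The sequences just upstream of the 6 starts that a region of any list covered are shown to let the promoters be read beside the peaks. A region over a start need not span all of the bases printed. Each line gives the 250 bases before the start, 5′ to 3′ on the strand of the gene, from RefSeq (GRCh38.p14), with matches to 9 motifs, searched for on both strands, in capitals. A half-site of hormone receptors was searched for as AGAACA. The forkhead motif was taken as TGTTTAC, with the variant that ends in GC in place of AC. The motif of GATA factors was taken as AGATAA, that of AP-2 as GCCNNNGGC and that of grainyhead factors as AACCNGTT. The promoter boxes searched were TATAAA and, for the box named after it, CCAAT. The last motif, from the end of the endoplasmic reticulum stress element, was CCACG. TFAP2A lies at chr6:10419660-10419909, minus strand. SPDEF lies at chr6:34556330-34556579, minus strand. GATA3 is on the plus strand, and its first start has chr10:8045083-8045332 before it. Of its internal starts, the middle one covered has chr10:8054438-8054687 before it and the last chr10:8060207-8060456. XBP1 has chr22:28800570-28800819 before its first start, minus strand.
TFAP2A: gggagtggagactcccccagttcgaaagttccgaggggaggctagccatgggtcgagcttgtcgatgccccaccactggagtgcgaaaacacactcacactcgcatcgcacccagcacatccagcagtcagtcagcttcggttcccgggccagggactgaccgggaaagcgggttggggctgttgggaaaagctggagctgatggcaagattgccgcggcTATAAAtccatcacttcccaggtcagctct
SPDEF: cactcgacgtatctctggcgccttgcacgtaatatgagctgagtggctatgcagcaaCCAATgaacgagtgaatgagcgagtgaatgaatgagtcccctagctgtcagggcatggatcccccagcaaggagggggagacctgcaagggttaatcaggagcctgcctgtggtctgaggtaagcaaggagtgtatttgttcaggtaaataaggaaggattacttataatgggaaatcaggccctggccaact
GATA3, first start: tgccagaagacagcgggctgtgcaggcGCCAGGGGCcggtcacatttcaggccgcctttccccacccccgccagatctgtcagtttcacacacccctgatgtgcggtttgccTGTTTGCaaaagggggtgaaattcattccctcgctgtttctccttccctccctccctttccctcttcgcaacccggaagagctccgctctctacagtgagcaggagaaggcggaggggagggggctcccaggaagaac
GATA3, middle covered start: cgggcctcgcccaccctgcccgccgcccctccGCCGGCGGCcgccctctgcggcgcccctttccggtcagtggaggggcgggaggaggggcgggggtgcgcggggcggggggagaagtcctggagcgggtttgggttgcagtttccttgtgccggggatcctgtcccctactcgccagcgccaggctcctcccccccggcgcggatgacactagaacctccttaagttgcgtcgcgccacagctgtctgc
GATA3, last covered start: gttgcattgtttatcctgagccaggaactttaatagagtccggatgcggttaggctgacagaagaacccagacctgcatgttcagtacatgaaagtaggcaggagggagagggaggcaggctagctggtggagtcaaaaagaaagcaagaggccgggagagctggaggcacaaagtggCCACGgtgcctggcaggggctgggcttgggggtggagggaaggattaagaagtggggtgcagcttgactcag
XBP1: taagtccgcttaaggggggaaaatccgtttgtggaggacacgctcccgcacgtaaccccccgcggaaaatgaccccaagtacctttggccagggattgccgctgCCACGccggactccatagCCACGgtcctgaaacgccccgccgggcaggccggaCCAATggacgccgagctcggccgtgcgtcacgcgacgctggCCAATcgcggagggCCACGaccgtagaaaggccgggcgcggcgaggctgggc

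The promoters shared few of these letters. TFAP2A carried TATAAA with its first base 30 bases before the start, a motif held by 10.7% of the 35116 upstream windows of the same length. SPDEF carried CCAAT 193 bases before its start, as 32.0% of windows do somewhere. The first GATA3 start had the forkhead variant TGTTTGC 138 bases before it and the AP-2 letters GCCAGGGGC 223 bases before it, and 3.23% and 19.8% of windows held these motifs. The middle covered start of GATA3 had the AP-2 letters GCCGGCGGC 218 bases before it and no other match. The last had CCACG alone, which is in 33.5% of windows. XBP1 held CCAAT at 2 places and CCACG at 3, and the CCAAT 52 bases before the start is followed after 9 bases by CCACG. The one region over this start, a POLR3A P4 region, ends at chr22:28800643, so it spans that pair and not the matches farther upstream. That spacing, the endoplasmic reticulum stress element, was found in 26 of the 35116 windows, or 0.074%. The hormone receptor half-site AGAACA, held by 12.4% of windows, was in none of the 6 printed, nor were TGTTTAC (2.98%), AGATAA (9.17%) and AACCNGTT (1.49%). A match describes letters, and its absence says only that they are not in that window.

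All 7 genes had regions of both antibodies under both treatments. The backgrounds are 74.6% of protein-coding genes with at least 1 PR region under vehicle, 90.5% under P4, 68.7% with a POLR3A region under vehicle and 71.9% under P4, so having a region was common. The median over the 7 was 11 PR regions with vehicle and 26 with P4, beside 7 and 13 POLR3A regions, against medians of 2, 8, 2 and 2 over all protein-coding genes. Windows of neighbouring genes overlap, so genes are not independent draws, and longer genes have longer windows.

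FOXA1 had 5 PR regions with vehicle and 12 with P4, but 5 POLR3A regions with vehicle and 3 with P4. GATA3 had 15 and 26 PR regions and 13 and 17 POLR3A regions. Of the AP-2 genes, TFAP2A had 4 and 15 PR and 4 and 5 POLR3A regions. TFAP2C was close to it, with 3 and 14 PR and 3 and 7 POLR3A regions. The highest counts in each list were at GRHL2, with 46 and 96 PR and 38 and 71 POLR3A regions. SPDEF had 15 and 46 PR and 14 and 27 POLR3A regions. XBP1 had 11 and 27 PR and 7 and 13 POLR3A regions. The 7 genes thus fell into an upper part, led by GRHL2 and SPDEF, and a lower part of FOXA1, TFAP2A and TFAP2C. GRHL2 alone gave 46.5% of the PR vehicle regions, 40.7% of the PR P4 regions, 45.2% of the POLR3A vehicle regions and 49.7% of the POLR3A P4 regions.

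**Figure D1:**
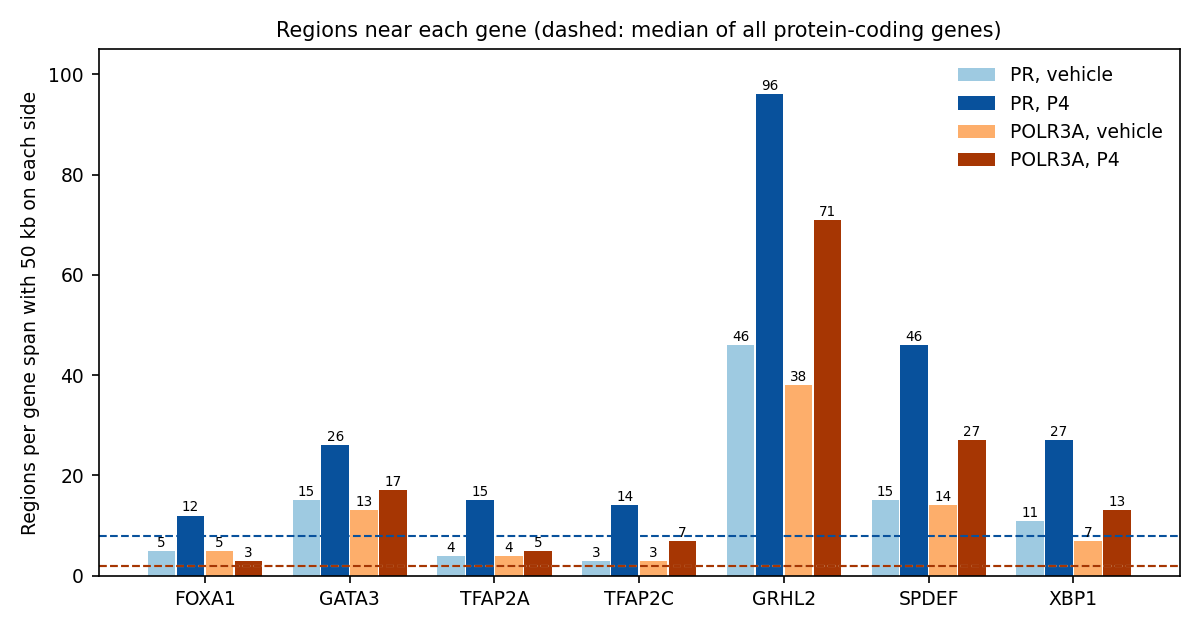
Number of regions (y axis) in each gene's window of 50 kb either side of its span (x axis), 1 bar per deposited list; dashed lines mark the median over all protein-coding genes, 8 for PR under P4 and 2 for POLR3A under P4. GRHL2 has the highest bar in every list, and FOXA1 is the gene with fewer POLR3A regions under P4 than under vehicle.

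Set against all protein-coding genes, GRHL2, with the longest of the 7 windows (288.8 kb), was near the top by count. As many regions or more were in the windows of 0.0303% of genes for PR under vehicle, 0.0605% for PR under P4, 0.0959% for POLR3A under vehicle and 0.0353% for POLR3A under P4. For SPDEF these shares were 3.13%, 1.46%, 4.37% and 2.22%. GATA3 (3.13%, 10.9%, 5.3% and 8.32%) and XBP1 (7.41%, 9.91%, 16.2% and 13.2%) came next, with shares no higher than 16.2%. FOXA1, TFAP2A and TFAP2C were ordinary by this measure: between 24.6% and 49.8% of genes had as many regions as they did.

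Longer windows can hold more regions, so the regions were also counted per 100 kb. Under P4 SPDEF had the most PR regions per 100 kb, 38.81, followed by GRHL2 with 33.25. For POLR3A under P4 GRHL2 had the most, 24.59, followed by SPDEF with 22.78. With PR given first, XBP1 had 25.47 and 12.26, GATA3 20.02 and 13.09, TFAP2C 12.73 and 6.36, TFAP2A 12.2 and 4.07, and FOXA1 11.35 and 2.84. Under vehicle the PR densities ran from 2.73 at TFAP2C to 15.93 at GRHL2, and the POLR3A densities from 2.73 at TFAP2C to 13.16 at GRHL2. The median gene of the genome had 1.51 PR regions per 100 kb with vehicle and 5.28 with P4, beside 0.97 and 1.72 POLR3A regions. Each of the 7 genes was above the genome's median in every list. By density GRHL2 was less extreme than by count. Windows as dense or denser, in the same order of lists, were those of 0.772%, 1.54%, 2.6% and 1.2% of genes. For SPDEF the shares by density were 1.98%, 0.605%, 3.63% and 1.62%.

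The windows also stood above their own surroundings. In each of the 4 lists, 7 of 7 genes had more regions per 100 kb in the window than in the 1 Mb on each side of it. The background for this is 46.3% of protein-coding genes for PR under vehicle, 54.8% for PR under P4, 46.8% for POLR3A under vehicle and 46.9% for POLR3A under P4. FOXA1 sat in the emptiest surroundings, with 0.4 PR regions per 100 kb around it against 4.73 in its window under vehicle, and 2.4 against 11.35 under P4. TFAP2C stood out least, with 2.45 around it against 2.73 inside under vehicle and 8.55 against 12.73 under P4. The ratio of window to surroundings ran from 1.11 to 11.82 for PR under vehicle and from 1.49 to 4.73 under P4. For POLR3A it ran from 1.24 to 23.65 under vehicle, the upper value resting on 4 regions around FOXA1, and from 1.55 to 6.45 under P4.

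**Figure D2:**
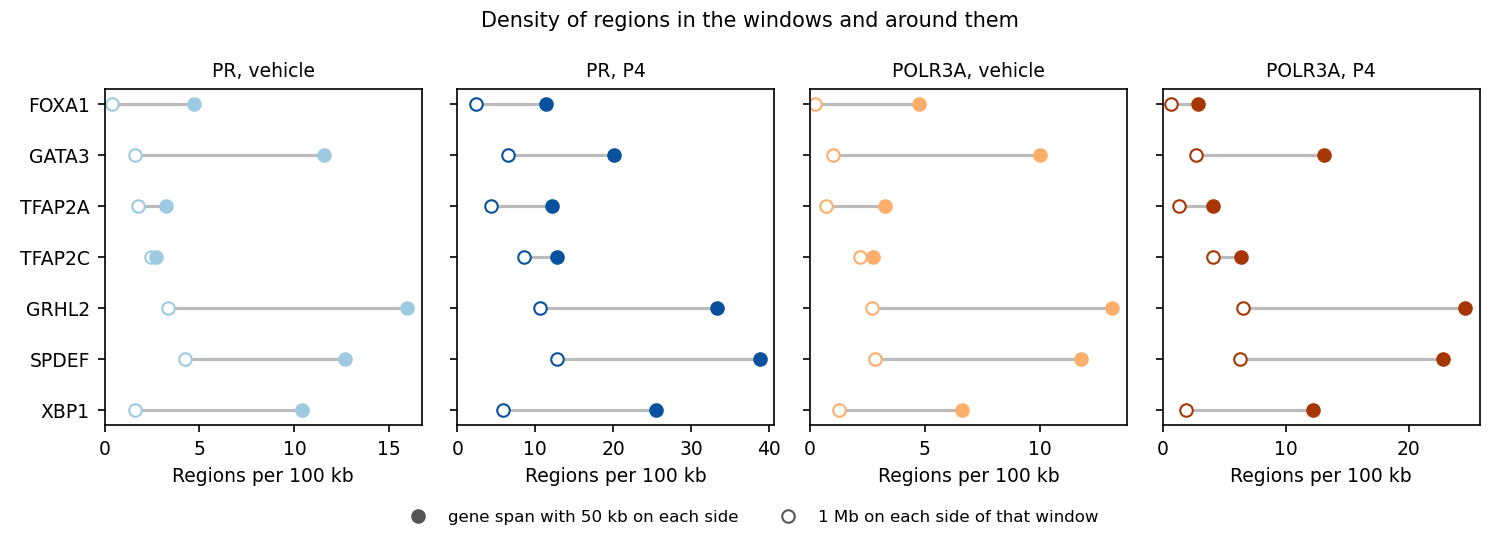
Regions per 100 kb (x axis) for each gene (y axis) in the 4 lists; filled points are the windows and open points the 1 Mb on each side of that window. The filled point lies to the right of the open point for all 7 genes in each panel, and the ratio of the 2 is lowest at TFAP2C.

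Under P4 the 7 windows held 236 PR regions against 99 under vehicle, a ratio of 2.38. All 7 genes had more PR regions under P4, as 87.2% of protein-coding genes did, and the whole PR list grew by more, 2.86 times, from 38933 to 111515 regions. Among regions with a −log10 q of at least 10 (the authors' adjusted p, higher for stronger regions) the windows went from 38 to 73, a ratio of 1.92 against 2.43 over the whole list. When the P4 list was cut to its 38933 strongest regions, the windows held 87 P4 regions against 99 under vehicle. That cut sets the whole lists to equal length by design, and the part of list length in the increase was not tested. Under that cut TFAP2A, TFAP2C and XBP1 had more regions under P4, GATA3, GRHL2 and SPDEF had fewer, and FOXA1 was equal. No share over all protein-coding genes is given for this cut, so the split cannot be set against a background. Read depth is not known from the lists, and its part in their lengths was not tested.

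By gene, the P4 to vehicle ratio of PR counts was 4.67 at TFAP2C and 3.75 at TFAP2A, the genes with fewest vehicle regions, 3.07 at SPDEF, 2.45 at XBP1, 2.4 at FOXA1, 2.09 at GRHL2 and 1.73 at GATA3. The POLR3A ratios were smaller at each gene, from 0.6 at FOXA1 to 2.33 at TFAP2C. POLR3A regions went from 84 to 143, a ratio of 1.7 against 1.64 over the whole list. All genes but FOXA1, 6 of 7, had more POLR3A regions under P4, where 51.3% of protein-coding genes did. Most of these were weak regions: above a −log10 q of 5 there were 19 and 25, with 2 genes up (GRHL2 and SPDEF), 2 down (GATA3 and XBP1) and 3 equal. The share over all protein-coding genes at this score is not given. With POLR3A lists of equal length they were 84 and 89.

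The strength of the regions differed between the antibodies. Of the PR regions in the windows, 38.4% had a −log10 q of at least 10 under vehicle and 30.9% under P4, against 32.2% and 27.4% of the whole lists. Of the POLR3A regions 2.38% and 0.699% did, 2 regions and 1 region, against 8.78% and 5.4% of the whole lists. So the windows held PR regions of about the usual strength or above, and many POLR3A regions of low score. The median fold enrichment, the authors' value over their background, was 3.57 for PR regions under P4 in the windows and 3.55 over the list, and 3.29 and 3.28 for POLR3A under P4.

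The strongest PR regions lay at GRHL2, XBP1 and SPDEF, each with a region among the 1% of PR P4 regions that scored highest, 3 of the 7 genes against 9.1% of protein-coding genes. At GRHL2, an epithelial factor whose span lies at chr8:101492439-101681200, 4 regions were in that top 1%. The first, at chr8:101502262-101502840 within the gene and 10.2 kb from its lower-coordinate end, had a −log10 q of 357.2 and ranked 360 in the PR P4 list. The vehicle list had a region there with 202.7 and a summit 5 bp away. A region within the gene at chr8:101603527-101604049 had 337.1. The intergenic region at chr8:101445308-101446186, 46.6 kb outside the lower end, had 328.2 under P4 and was the strongest GRHL2 region under vehicle, with 279.5. The fourth, at chr8:101473917-101474664 in the divergent transcript GRHL2-DT, had 295.7 under P4 and 213.1 under vehicle, with the summit at the same base. Scores of separately called lists are given side by side and are not levels that can be compared.

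POLR3A regions met several of these GRHL2 sites. A POLR3A P4 region overlapped all 4 of the strongest PR regions, with summits 44 to 199 bp apart, and a vehicle POLR3A region overlapped the intergenic one and the one in GRHL2-DT. The strongest POLR3A regions in any of the windows were also here. Under vehicle it was at the lower end of GRHL2, chr8:101491998-101492853, with a −log10 q of 18.5, and under P4 it was within the gene at chr8:101652293-101652618 with 14.0. The lower end was covered in all 4 lists, with a −log10 q of 61.03 for PR under vehicle, 87.49 for PR under P4, 18.51 for POLR3A under vehicle and 5.3 for POLR3A under P4.

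XBP1 had no PR region within its span under vehicle and 2 under P4, and its strong sites lay beyond the gene. The gene spans chr22:28794560-28800569 on the minus strand, and 3 intergenic regions upstream of its start formed a cluster. The strongest, chr22:28818032-28820258, was 2227 bp wide and 18.2 kb from the start, with a −log10 q of 293.5 under P4 and 148.0 under vehicle, and it was met by both POLR3A lists. The second, chr22:28813279-28814368, 13.4 kb from the start, had 213.1 under P4 and 113.5 under vehicle. The third, chr22:28822795-28823952, 22.6 kb from the start, had 183.6 and 97.0 and was met by both POLR3A lists too. All 3 were thus present without hormone.

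SPDEF spans chr6:34537802-34556329, minus strand, and its strongest regions lay in a neighbouring gene. The regions chr6:34598136-34599235 and chr6:34602410-34603293 are within ILRUN, 42.6 and 46.3 kb upstream of the SPDEF start. They had a −log10 q of 257.9 and 195.6 under P4 and of 145.7 and 90.5 under vehicle. The first was in all 4 lists, with PR summits at the same base under both treatments and POLR3A summits 49 and 47 bp from the P4 summit. The next PR P4 regions, chr6:34543259-34543677 and chr6:34538564-34539339 within SPDEF, were far weaker, at 43.1 and 41.1. Which gene a region serves cannot be read from its position.

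GATA3 spans chr10:8045333-8075198 on the plus strand, and its strongest regions were within the gene. The region chr10:8066621-8067062 had a −log10 q of 130.7 under P4 and 71.6 under vehicle and met no POLR3A region. The region chr10:8064399-8064745 had 80.3 under P4 and 28.9 under vehicle, with summits 3 bp apart, and met a POLR3A P4 region of 2.57. The third, chr10:8068505-8069046, had 29.6 under P4. The strongest POLR3A regions of GATA3 were at chr10:8046481-8047165 under vehicle, 1.32 kb into the gene with 7.97, and at chr10:8112792-8113236 under P4, intergenic with 6.98. GATA3-AS1 overlaps part of the gene, and a region over both cannot be given to one of them.

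FOXA1, at chr14:37589552-37595249 on the minus strand, had its strongest PR regions outside the gene. The region chr14:37585985-37586310 is beyond the 3′ end, 9.1 kb from the start, with a −log10 q of 106.4 under P4 and 22.9 under vehicle, the summits 2 bp apart. The second, chr14:37546670-37547159, is within the neighbouring gene MIPOL1 and had 28.4 and 12.9. The third, chr14:37573440-37573685, is intergenic and had 23.9 and 2.64. None of these 3 met a POLR3A region. No POLR3A region of FOXA1 in either list had a −log10 q above 4.25.

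TFAP2A, at chr6:10396677-10419659 on the minus strand, had its strongest PR region closer to a start than FOXA1, GATA3, SPDEF and XBP1. That region, chr6:10420300-10420791, had its summit 969 bp upstream, with a −log10 q of 79.1 under P4 and 12.9 under vehicle. The next, chr6:10428145-10428576 (17.2 under P4, 3.59 under vehicle), overlaps LINC00518, a long noncoding RNA gene, and the third, chr6:10419579-10419863 (17.1 and 10.1), covered the start. TFAP2C, at chr20:56629306-56639283, had its strongest PR region between genes at chr20:56668884-56669514, 29.7 kb above the upper-coordinate end, with 83.9 under P4 and 36.6 under vehicle. Its second was at the lower end, chr20:56627961-56630289, with 43.6 under P4 and 22.1 under vehicle. At 2329 bp this was the widest PR P4 region of the gene, and the vehicle region there was 1248 bp wide.

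**Figure D3:**
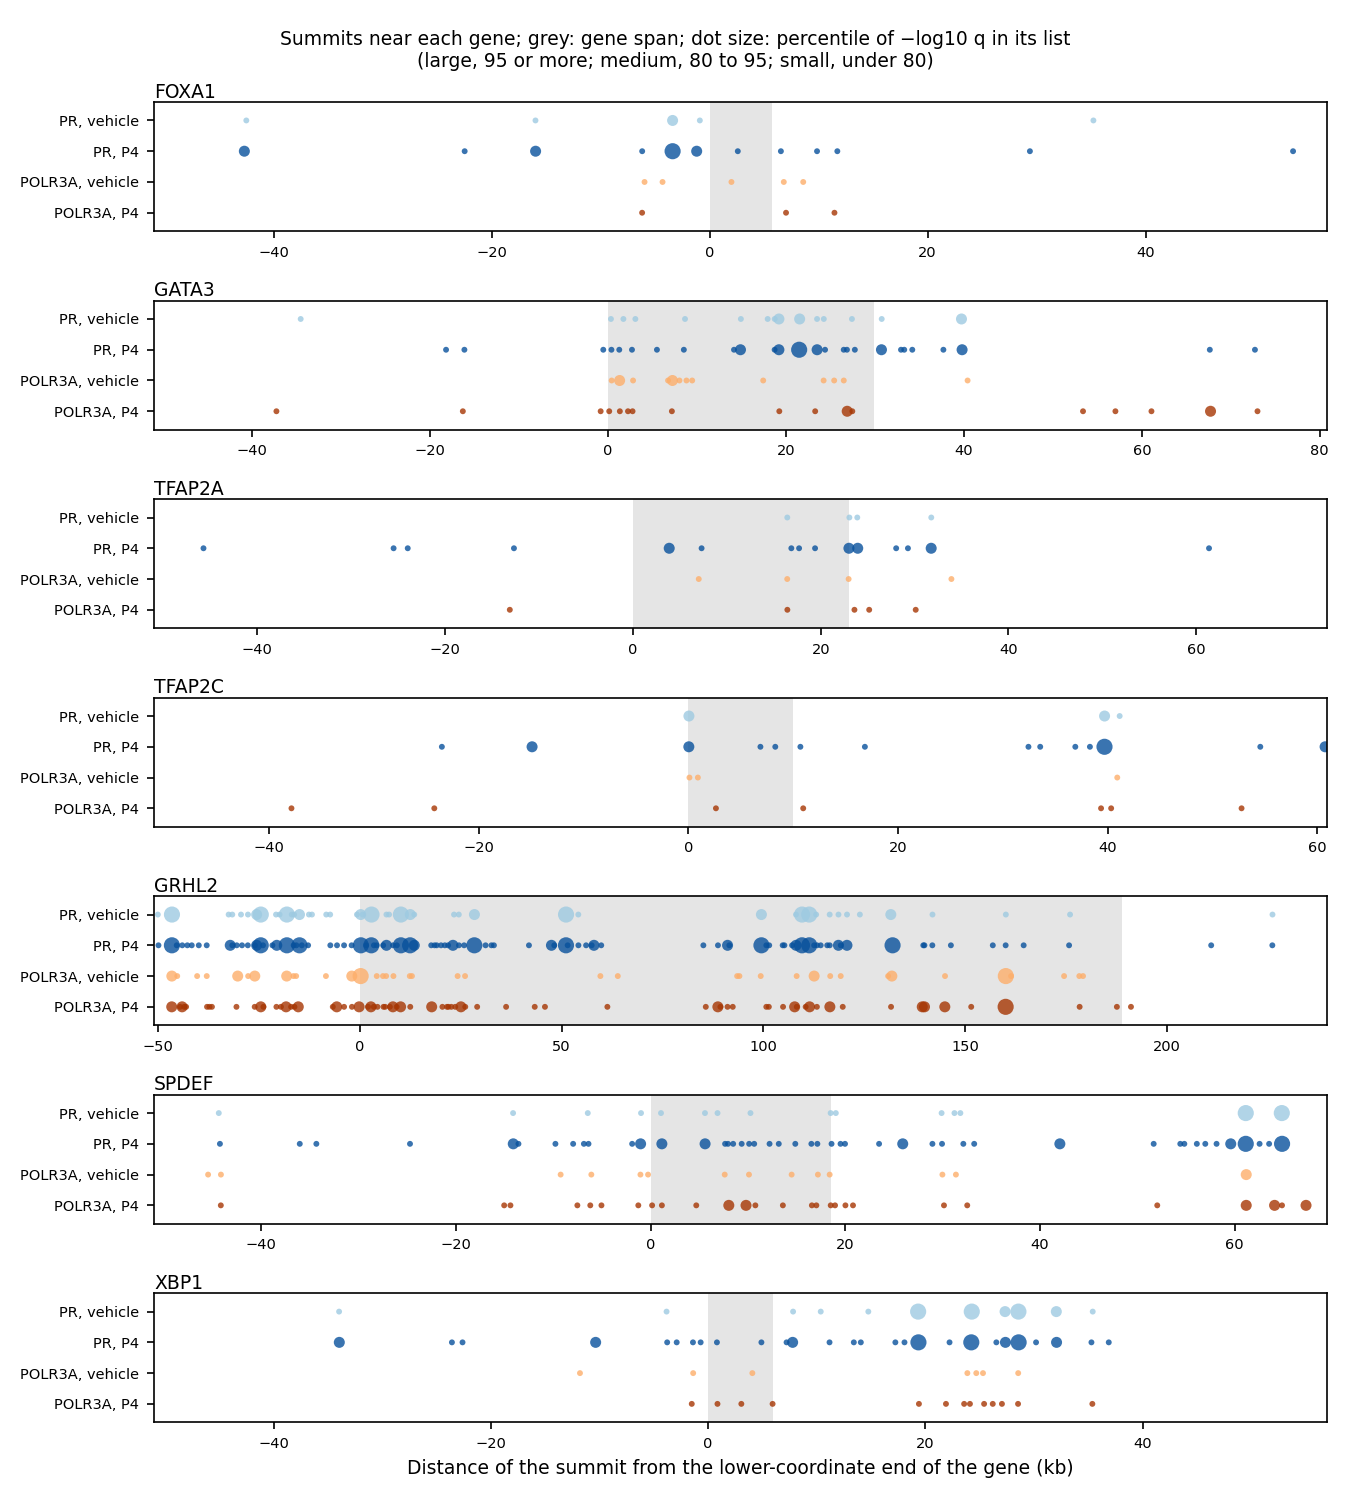
Summits of all regions in the 4 lists (rows in each panel) by distance from the lower-coordinate end of each gene in kb (x axis); grey marks the gene span, and the dot grows with the percentile of the region's −log10 q within its own list. The large PR dots under P4 sit inside GATA3, in and beside GRHL2, and outside FOXA1, TFAP2C, SPDEF and XBP1, and at SPDEF and XBP1 the vehicle list has large dots at the same places.

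Regions at gene starts were counted for the 5 genes with a RefSeq start in the table used, FOXA1, GATA3, TFAP2A, SPDEF and XBP1, taking any annotated start. A PR region lay within 1 kb of a start in 3 of 5 under vehicle and 5 of 5 under P4, where the background is 22.7% and 48.4% of protein-coding genes. A POLR3A region did in 4 of 5 under each treatment, against 30.6% under vehicle and 32.8% under P4. FOXA1 and XBP1 had no PR region there under vehicle. At FOXA1 the P4 region was weak, with a −log10 q of 2.15 and its summit 836 bp away, and no region of any list covered the start. At XBP1 the start was covered by a POLR3A P4 region of 3.17, over the sequence with the stress element printed above, and by no PR region.

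The starts of TFAP2A and SPDEF were covered in 3 lists, both PR lists and POLR3A under vehicle. At TFAP2A the POLR3A vehicle region had its summit 1 bp from the start and a −log10 q of 2.51. At SPDEF the POLR3A vehicle region covering the start had 5.03, and the PR P4 region 7.42 with its summit 62 bp from the start. The first GATA3 start was covered by PR and POLR3A regions under P4, of 5.57 and 4.11. The middle covered GATA3 start was reached by a POLR3A vehicle region of 3.91, at chr10:8054682-8054873, and by no other list. The last had a PR region of 12.18 under vehicle, ending before the start, and one of 25.69 under P4 that covered it. For TFAP2C and GRHL2, whose strand was not used, a PR region was within 1 kb of the lower end in both lists, and at GRHL2 a POLR3A region too. At TFAP2C a POLR3A region was near the lower end under vehicle alone. Under P4 the one near a gene end was at the upper end, with 2.34. No share over all genes is given here for gene ends.

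Between 44.1% and 59.5% of the summits in the windows fell within one of the 7 genes. For PR under P4, 104 of 236 summits were in the member's own span, 51 in another gene and 81 (34.3%) between genes. For POLR3A under vehicle 50 of 84 were in the span and 17 (20.2%) between genes. XBP1, with a span of 6010 bp, had 2 of 27 PR P4 regions overlapping it, and GRHL2, with 188762 bp, had 65 of 96.

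PR regions under vehicle were mostly found again under P4. Among the 99 found without hormone, 81 shared at least 1 base with a P4 region, 81.8% (95% Wilson interval 73.1 to 88.2), against 75.7% of the whole list. The reverse share was 80 of 236 P4 regions, 33.9% (28.2 to 40.2), against 25.8% of the list. Without GRHL2 it was 30.7% (23.7 to 38.8), an interval that contains the list's share. In the windows it was 67.8% with lists of equal length, 52.1% with a −log10 q of 10 or more in both lists and 21.2% with a reciprocal overlap of 50%. Shares of the whole list are not given for these settings. By gene the share with any overlap was 46.2% at GATA3, 38.5% at GRHL2, 33.3% at FOXA1 and at XBP1, 26.7% at TFAP2A, 23.9% at SPDEF and 21.4% at TFAP2C, and the intervals of all 7 overlapped. The share was higher among strong regions: 56 of the 73 P4 regions with a −log10 q of at least 10 (76.7%) met a vehicle region, and 24 of the 163 others (14.7%) did, beside 64.8% and 11.1% of the whole list. Where regions met, the summits were a median of 39 bp apart, against 30 bp over the whole lists.

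The strongest PR P4 region of each gene that met no vehicle region, chosen after its values were seen, was weak beside those above. The highest was within GRHL2 at chr8:101550267-101550559, with a −log10 q of 42.7. SPDEF had one at chr6:34563514-34563867, 7.38 kb upstream of its start, with 34.9, and XBP1 one at chr22:28783959-28784351 in CCDC117 with 22.5. TFAP2C had 16.9 and TFAP2A 16.8, and GATA3 and FOXA1 had none above 8.26 and 7.8.

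POLR3A regions were found again less completely. Of the 84 vehicle regions 42 met a P4 region, 50% (39.5 to 60.5), against 42.0% of the whole list. Of the 143 P4 regions 41 met a vehicle region, 28.7% (21.9 to 36.6), against 25.8%. With a reciprocal overlap of 50% the latter share was 16.1% in the windows, and no share of the whole list is given for it. At TFAP2C none of its 7 P4 regions met any of its 3 vehicle regions, with an upper Wilson limit of 35.4% of its P4 regions. The summits of meeting regions were a median of 124 bp apart, against 76 bp over the whole list.

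Many of the POLR3A regions in the windows lay where PR was called. Under vehicle 36 of 84 overlapped a PR region, 42.9% (32.8 to 53.5), against 32.3% of the list, an interval that contains the list's share. Under P4 94 of 143 did, 65.7% (57.6 to 73.0), against 50.5%, and 62.5% (51 to 72.8) without GRHL2. With the PR list cut to the length of the POLR3A list within each treatment, the shares were 34.3% under P4 and 34.5% under vehicle. The vehicle and P4 lists still differed in length there, so these shares are not a comparison of treatments at equal length. With a reciprocal overlap of 50% the shares were 16.7% under vehicle and 30.1% under P4. Shares of the whole list are not given for the cut or for reciprocal overlap. Those above are for uncut lists and any overlap. From the side of PR, 33 of 99 vehicle regions met POLR3A, 33.3% (24.8 to 43.1) against 24.2% of the list, and 91 of 236 P4 regions, 38.6% (32.6 to 44.9), against 20.9%. GRHL2 weighed most in the last share, with 48 of its 96 PR P4 regions meeting POLR3A, and without it the share was 30.7% (23.7 to 38.8). At TFAP2A it was 2 of 15 and at FOXA1 2 of 12. The summits of PR and POLR3A were a median of 126 bp apart under vehicle and 101.5 bp under P4, against 81 bp and 112 bp over the whole lists.

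Merging the 4 lists where they touch gave 314 sites in the windows. PR alone held 138, POLR3A alone 65, and both antibodies 111, or 35.4% against 19.6% of the 150886 sites of the whole lists. Treatments are pooled in these classes. Of the sites with both, 9 had PR under P4 alone and POLR3A under vehicle alone, and 3 had the reverse. Without GRHL2 the share with both was 29.4%. By gene it was 44.1% at GRHL2, 36.7% at SPDEF, 33.3% at GATA3, 27.8% at TFAP2A, 26.3% at TFAP2C, 23.5% at XBP1 and 11.8% at FOXA1. FOXA1 was the only one of the 7 below the share of the whole lists, on 2 of 17 sites. Sites in all 4 lists numbered 25 (7.96%, against 4.23%): 11 at GRHL2, 7 at SPDEF, 3 at GATA3, 2 at XBP1, 1 each at TFAP2A and TFAP2C, and none at FOXA1. The TFAP2C site, chr20:56689201-56691156, crosses the edge of the window, and the vehicle regions in it lie outside the window. The most common class was PR under P4 alone, with 99 sites (31.5%), fewer than its 44.2% of all sites. It made up 10 of 19 sites at TFAP2C and 9 of 18 at TFAP2A, but 7 of 39 at GATA3.

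**Figure D4:**
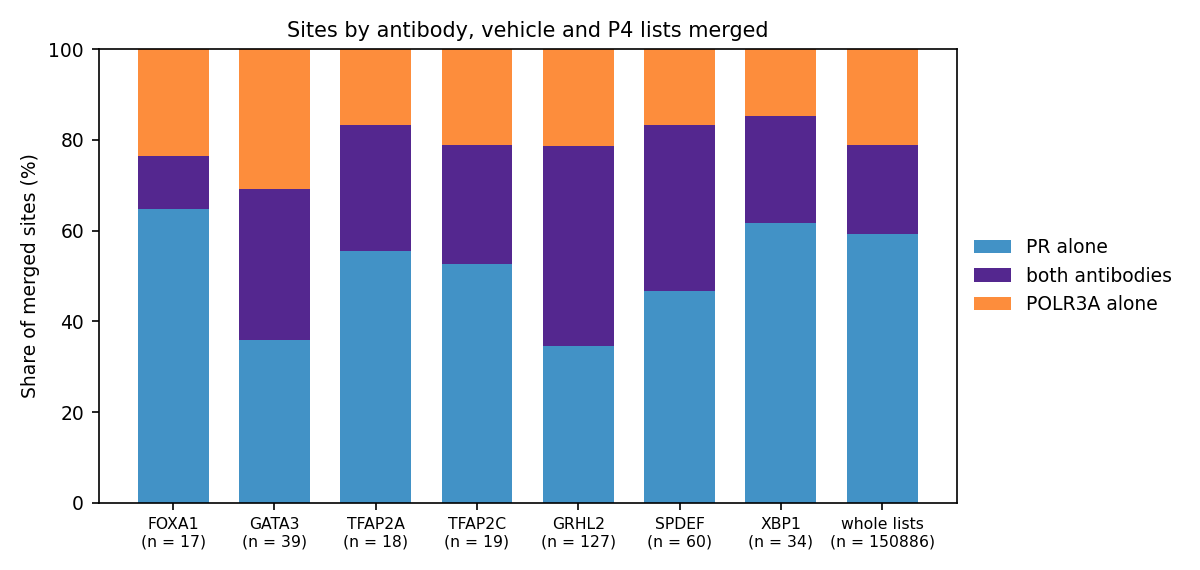
Share of merged sites in percent (y axis) with PR alone, POLR3A alone or both, treatments pooled, for each gene and for the whole lists (x axis, with the number of sites). The share with both is 44.1% at GRHL2 and 11.8% at FOXA1, against 19.6% in the whole lists.

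Lists of related genes put these values in context. A list of 16 related factors, labelled paralogs in the figure, held members of the same families and ATF6, which is not a paralog of XBP1. These 16 had a median of 7.17 PR P4 regions per 100 kb, 24 other luminal genes 9.95, and 20 basal or mesenchymal genes 6.93. The 7 genes had 20.02 and all protein-coding genes 5.28. For POLR3A under P4 the medians were 3.39, 3.58 and 1.82, against 12.26 and 1.72. PR regions under P4 were present for 15 of 16 related factors, 24 of 24 luminal and 19 of 20 basal or mesenchymal genes. The background is 90.5% of protein-coding genes. They were more than under vehicle for 14, 24 and 18 of these genes, against a background of 87.2%. POLR3A regions were more under P4 for 10 of 16, 13 of 24 and 13 of 20, against 51.3% of protein-coding genes. The lists overlap widely in density, and no list was tested against another.

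Related factors with the strongest PR P4 regions were GRHL1 (−log10 q of 360.23), a grainyhead factor, TFAP2E (323.52), an AP-2 gene, the Ets-family gene EHF (313.71) and the stress sensor ATF6 (306.17). TFAP2D, also an AP-2 gene, had no region in any list. Among the luminal genes MLPH had 467.61, CA12 322.71, AGR3 308.75 and the keratin gene KRT19 286.79. Among the basal or mesenchymal genes SOX10 had 356.13, KRT14 286.79, SOX9 274.09 and SNAI1 233.32, while SNAI2, another epithelial-mesenchymal transition factor, had no region in any list. The windows of KRT14 and KRT19 share the region that gives their value. Strong PR regions thus also lay near genes of basal and mesenchymal cells.

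**Figure D5:**
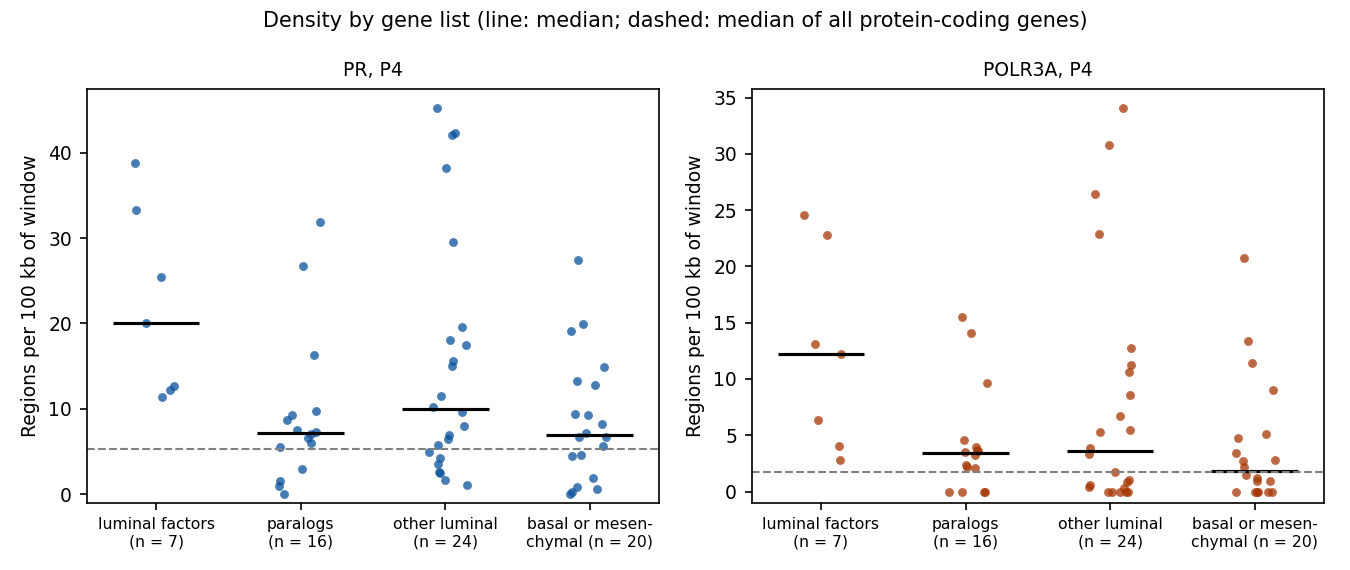
Regions per 100 kb (y axis) of each gene in the 4 gene lists (x axis) for PR under P4 and POLR3A under P4; the bar is the median of the list and the dashed line the median of all protein-coding genes. The medians of the 7 luminal factors are 20.02 and 12.26, and single genes of the other lists reach as high.

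The pattern of each gene over the 4 lists was compared with that of protein-coding genes whose windows overlap none of the 7 windows. Neighbours that share regions with the 7 genes were thus left out. The measure was the Euclidean distance over 8 values, log2(count + 1) and log2(highest −log10 q + 1) in each list. The nearest were FAHD1 and CARD10 for FOXA1 (0.56 and 0.63), TMC6 and DPM3 for GATA3 (0.66 and 0.66), RYR1 and IL10RA for TFAP2A (0.48 and 0.58), and AIFM3 and LMAN2L for TFAP2C (0.54 and 0.65). For SPDEF they were RALGAPB and ADAMTSL4 (0.5 and 0.51) and for XBP1 ZNRF2 and OLFML2A (0.43 and 0.45). GRHL2 had no such close match: DLG5 and C16orf74 were 0.95 and 1.01 away. Among the 7 genes, FOXA1 and TFAP2A were the nearest pair (1.17) and TFAP2A and GRHL2 the farthest (8.28).

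Genes of the kinds that RNA polymerase III transcribes were nearly absent from the windows. The TFAP2C window held the pseudogenes RNU6-1146P, at chr20:56667430-56667531, and RN7SL170P. Neither had a POLR3A region within 100 bp in either list. A PR P4 region of 10.4 overlapped RNU6-1146P. RN7SL170P, at chr20:56688401-56688695, had no region of any list within 100 bp. The site of all 4 lists at chr20:56689201-56691156 began beyond that distance.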

How the data were processed

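PR and POLR3A were profiled by ChIP-seq in T47D cells. The submitters' processing notes name cutadapt, Bowtie2 and MACS2 and the build hg38, and which input was used and how the 3 libraries of a group were combined are not given in the sources used here. For each region the deposited lists give the authors' fold enrichment and −log10 q. The highest deposited q value is 0.0497. The lists hold no read counts, so depth is unknown.

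Rows on chromosomes 1 to 22 and X were kept. Regions were assigned to a window by overlap, and regions of 2 lists met where they shared 1 base. Ranks are by −log10 q within a list. Shares have 95% Wilson intervals. Named regions are, by rule, the strongest of each list, those at the starts and up to 3 more of PR under P4. Members and gene lists were chosen with earlier results of these data known. Window counts on simulated regions equalled a direct count of the same regions for 200 of 200 genes, and overlaps were checked with bedtools 2.31.1. Python 3.11.15, pandas 2.3.3 and scipy 1.17.1 were used.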

Additional observations from a re-analysis of the deposited data

How the results depend on the processing

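No paired analysis was possible because the replicates of a group share 1 region list, and no replicate could be left out for the same reason. Region counts moved with the score required. Keeping regions with a −log10 q of 5 or more left 57 PR regions under vehicle, 135 under P4, and 19 and 25 POLR3A regions, and 10 or more left 38, 73, 2 and 1. With 10 kb on each side of the genes there were 62 PR regions under vehicle, 148 under P4 and 93 POLR3A regions under P4. With lists of equal length the P4 counts were 87 for PR and 89 for POLR3A. The shares moved too. For a reciprocal overlap of 50% they were 21.2% of PR P4 regions with PR vehicle, 16.1% of POLR3A P4 with POLR3A vehicle, 16.7% of POLR3A vehicle with PR vehicle and 30.1% of POLR3A P4 with PR P4. With 5 or more in both lists the last 3 were 20%, 57.9% and 56.0%. At 10 the share of PR P4 with PR vehicle was 52.1%. The 1 remaining POLR3A P4 region met POLR3A vehicle (100%) and no PR P4 region kept at that score (0%). The PR P4 region that overlaps it in the full list had a −log10 q of 6.15. With the P4 lists cut to the vehicle lengths, 67.8% of PR P4 met PR vehicle and 37.1% of POLR3A P4 met POLR3A vehicle. With the PR P4 list cut to the length of the POLR3A P4 list, 34.3% of POLR3A P4 met PR P4. With 5 or more a POLR3A region lay near a start, or a gene end for TFAP2C and GRHL2, in 3 genes under vehicle and 1 under P4. Counts by gene moved, by more than 1.5 times, in 27 of 28 cases at a −log10 q of 10 and in 11 of 28 with equal lengths. The equal-length cut left the vehicle lists whole, so only P4 counts could move there. Among the P4 counts all moved but those of POLR3A at FOXA1, GRHL2 and XBP1. PR counts were higher under P4 in all 7 genes at a −log10 q of 5 and 10, and in 3 with equal lengths. Shares over all protein-coding genes are not given for these settings.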
